A study of Arabidopsis thaliana with 18 samples.

Results

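The warmth response of h3.3kd seedlings, a line of Arabidopsis thaliana with reduced histone variant H3.3, was set against that of the wild type Col, gene by gene. The response is the difference between 27 and 21 °C in log2 of TPM + 1, TPM being transcript abundance scaled to a fixed sum per library. The interaction is the response of h3.3kd minus that of Col, so a positive value means that warmth moved the gene further up, or less far down, in h3.3kd. Of the 18 libraries in the series, 12 were used, 3 each of h3.3kd at 27 °C, h3.3kd at 21 °C, Col at 27 °C and Col at 21 °C. All came from 7-day-old seedlings kept in short days, and the genotype of the knock-down is labelled h3.3kd-1, without a statement of how the line was made. Of the 27655 genes in the table, 19529 were tested, namely nuclear genes that reached 1 TPM in 3 or more of the 12 libraries. The libraries of the other genotype entered 1 alternative fit and are not described.

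H3.3 is a variant of histone H3 that is put into chromatin outside of DNA replication, mainly over transcribed genes, while H3.1 is put in during replication. Moderate warmth makes Arabidopsis seedlings elongate, a change called thermomorphogenesis. In it the transcription factor PIF4 raises auxin synthesis genes, and the histone variant H2A.Z is removed from warmth-induced genes. The study addressed how H2A.Z removal and H3.3 deposition act in this growth response.

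The 3 H3.3 genes were low in every h3.3kd library at both temperatures. The H3.3 gene AT4G40030 was at 51.3, 52.9 and 58.5 TPM in h3.3kd at 27 °C and 45.5, 44.7 and 43.8 TPM at 21 °C, against 330, 347 and 337 TPM in Col at 27 °C and 429, 428 and 423 TPM at 21 °C. AT5G10980, also coding for H3.3, was at 18.3, 14.7 and 19.2 TPM in h3.3kd at 27 °C and 18.5, 20.7 and 17.3 TPM at 21 °C, against 188, 197 and 184 TPM in Col at 27 °C and 354, 329 and 346 TPM at 21 °C. The third, AT4G40040, was at 266, 258 and 271 TPM in h3.3kd at 27 °C and 262, 281 and 266 TPM at 21 °C, against 435, 473 and 432 TPM in Col at 27 °C and 602, 591 and 611 TPM at 21 °C. No library of h3.3kd overlapped with one of Col for any of the 3, and AT4G40040 kept the highest level of them in h3.3kd. In h3.3kd AT4G40030 rose with warmth by 0.27 on the log2 scale, and the responses of AT5G10980 and AT4G40040 were -0.11 and -0.03, not called. In Col all 3 fell, by 0.34, 0.85 and 0.43 in the order above. The interactions were 0.61 ± 0.07, 0.74 ± 0.12 and 0.40 ± 0.07 (standard error; limma adjusted p = 7.18e-05, 0.000788 and 0.00111). These genes are similar in their coding parts, and reads could have been split between them.

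Libraries of a group correlated with each other at mean r between 0.9886 and 0.9927 across genes. One library stood apart: chloroplast and mitochondrial genes took 3.66% of TPM in h3.3kd at 27 °C replicate 1, against 0.214% and 0.343% in the other 2 libraries of that group and 0.128% to 0.252% in the remaining 9. Nuclear genes at 1 TPM or more numbered 18475 to 19028 per library. TPM do not show the depth of a library. Counts below are also given without replicate 1 of h3.3kd at 27 °C where that moved them by over 1.5 times.

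Warmth changed fewer genes in h3.3kd than in Col at the same threshold (adjusted p under 0.05), a difference in counts that was not itself tested. In h3.3kd 5075 genes (26%) were higher and 3942 (20.2%) lower at 27 °C, against 6473 (33.1%) and 4392 (22.5%) in Col. The interaction was called for 3616 genes (18.5%): 1696 (8.68%) had a more positive and 1920 (9.83%) a more negative response in h3.3kd. Of these, 207 more positive and 318 more negative genes differed by at least 1 on the log2 scale. The median interaction over all genes was -0.036. Counts of called members in the gene lists below stand beside these all-gene shares, 8.68% more positive and 9.83% more negative.

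Of 6669 genes called for warmth in both genotypes, 6349 moved the same way and 320 moved in opposite directions, while 2348 were called in h3.3kd and not in Col and 4196 in Col and not in h3.3kd. The 2 responses, which share no library, correlated across genes at r = 0.676 and rho = 0.675, and genes are not independent replicates. For 8711 genes (44.6%) the 95% interval of the interaction lay within ±0.5. The 320 genes with opposite calls were all among the 3616 called for the interaction. This follows from the fit, where the interaction is the difference of the 2 responses, and is no separate test of these genes.

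**Figure D1:**
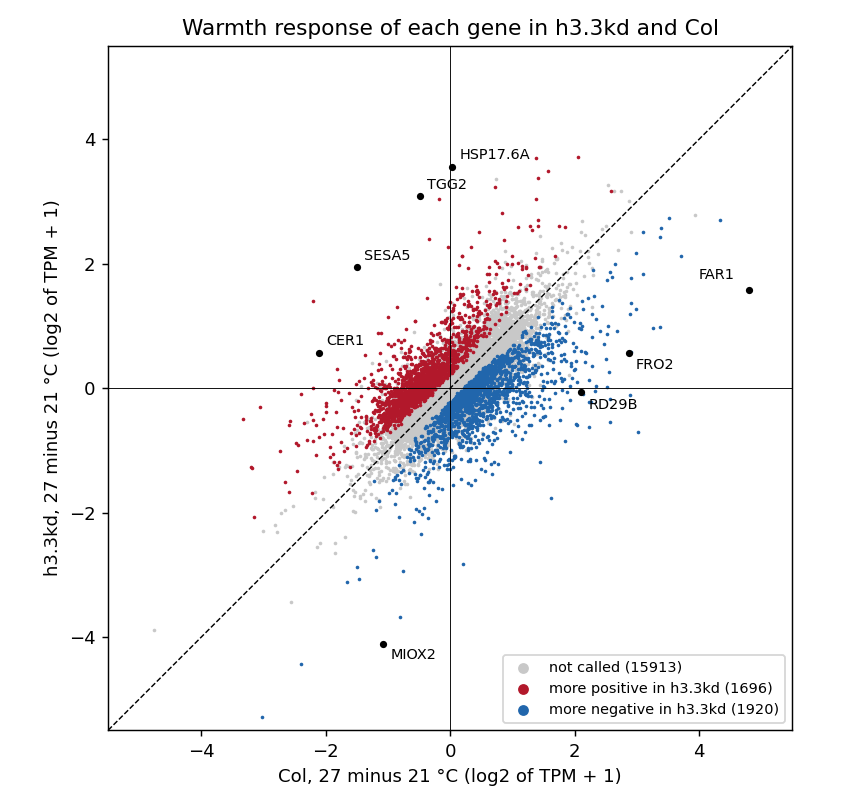
Warmth response in h3.3kd (vertical axis) against that in Col (horizontal axis), both as log2 of TPM + 1 at 27 minus 21 °C, for the 19529 genes tested. Red points are the 1696 genes with a more positive and blue points the 1920 genes with a more negative response in h3.3kd, the dashed line marks equal responses, and 8 genes described in the text are named.

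Some genes with large responses, picked for an interaction interval within ±0.5, had similar responses in both genotypes. EXPA8, an expansin that loosens cell walls, was at 128, 147 and 119 TPM in h3.3kd at 27 °C and 28.8, 21.9 and 23.8 TPM at 21 °C, against 137, 117 and 131 TPM in Col at 27 °C and 23.6, 24.8 and 23.9 TPM at 21 °C. Its response was 2.36 in both genotypes, and the interval of the interaction ran from -0.29 to 0.28. SAG21, a late embryogenesis abundant-type gene of senescence and stress, was at 362, 396 and 381 TPM in h3.3kd at 27 °C and 1465, 1477 and 1348 TPM at 21 °C, against 305, 304 and 294 TPM in Col at 27 °C and 1103, 1078 and 1153 TPM at 21 °C. It fell by 1.91 in h3.3kd and 1.88 in Col, with an interval of the interaction from -0.19 to 0.13. HOP3, a co-chaperone that bridges HSP70 and HSP90, rose by 2.20 in h3.3kd and 2.21 in Col. The chaperone gene AT2G20560, with a DNAJ product, rose by 1.87 and 1.88, CYP89A2 by 2.15 and 2.38, and the receptor kinase gene AT1G70250 by 2.01 and 2.03, in h3.3kd first. At the low end of the 0.5 limit stood CYP89A2, whose interval ran from -0.48 to 0.04. Levels were not alike for all of these genes. CYP89A2 had means of 109 and 23.8 TPM in h3.3kd at 27 and 21 °C, against 55.3 and 9.9 TPM in Col. AT1G70250 had 27.6 and 6.1 TPM in h3.3kd, against 12.4 and 2.27 TPM in Col.

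**Figure D2:**
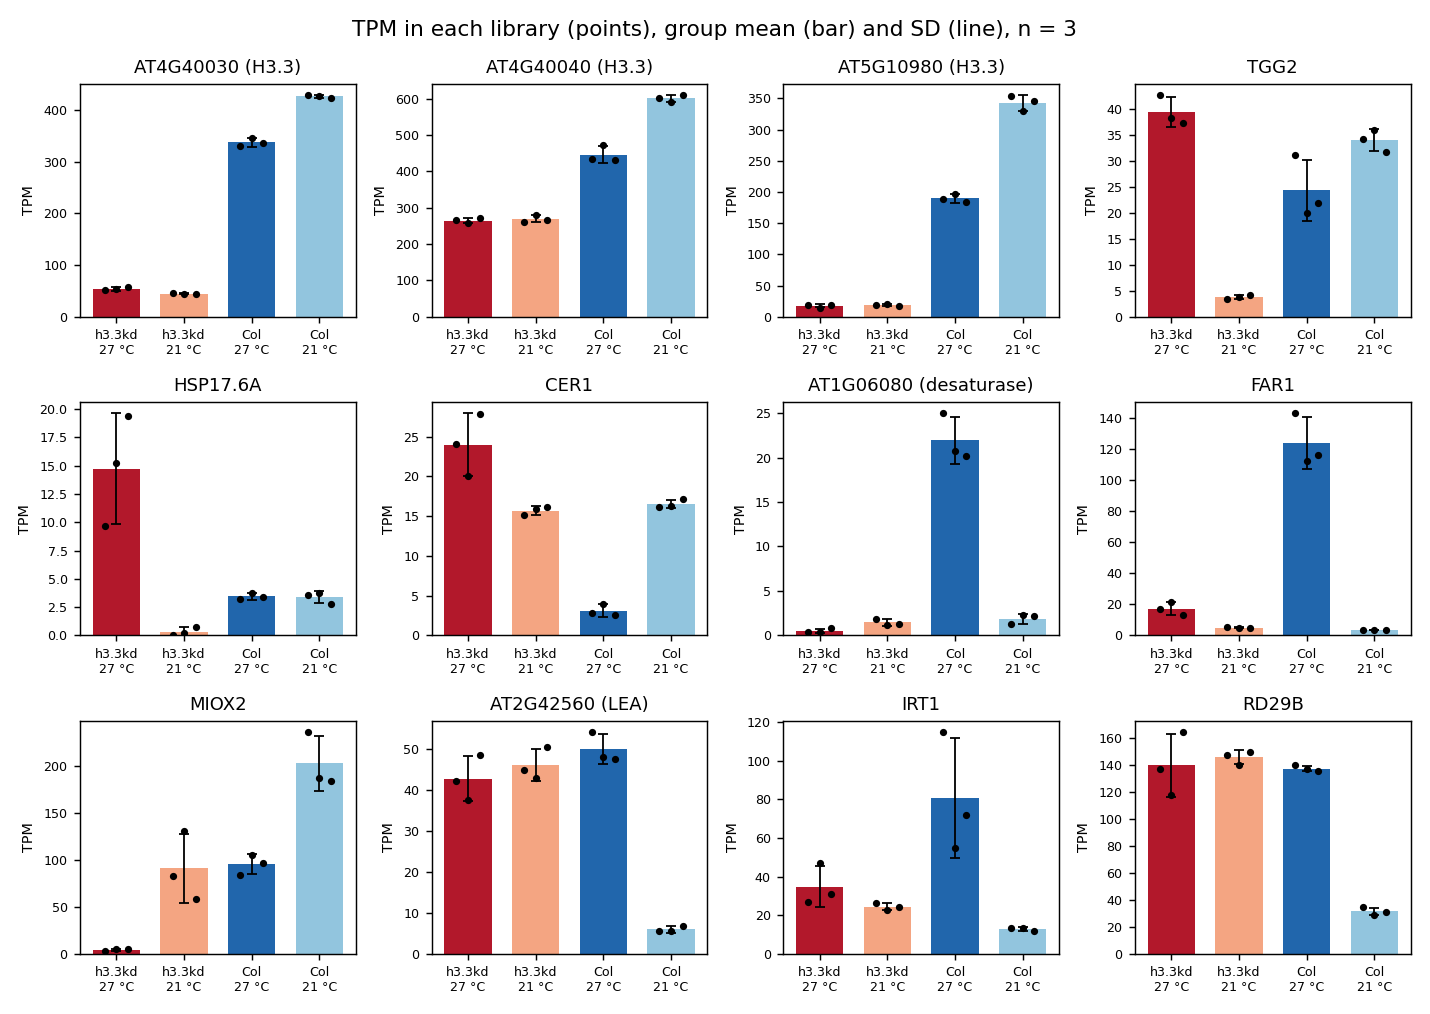
TPM (vertical axis, from 0) of 12 genes in each library (points) with group means (bars) and SD (lines, n = 3), in the order h3.3kd at 27 °C, h3.3kd at 21 °C, Col at 27 °C and Col at 21 °C. The H3.3 genes are low in all 6 h3.3kd libraries, HSP17.6A and TGG2 are lowest in h3.3kd at 21 °C, and FAR1, AT1G06080 and IRT1 are highest in Col at 27 °C.

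Among the growth regulators of warmth and shade, 5 of 21 tested (23.8%) had a more negative response in h3.3kd and 1 (4.76%) a more positive one. The shares over all genes were 9.83% and 8.68%. The median interaction was -0.25 against -0.036 over all genes. PIF4, the bHLH factor central to warmth-induced elongation, was at 11.9, 11.1 and 11.1 TPM in h3.3kd at 27 °C and 11, 8.22 and 9.69 TPM at 21 °C, against 14.9, 21.1 and 21.9 TPM in Col at 27 °C and 8.73, 8 and 8.82 TPM at 21 °C. The Col libraries at 27 °C lay above all others. PIF4 had a response of 0.22, not called, in h3.3kd and rose by 1.08 in Col (interaction -0.85 ± 0.19, adjusted p = 0.00573). Its relative PIF5 was at 21.6, 22.7 and 23 TPM in h3.3kd at 27 °C and 13, 14.2 and 11.3 TPM at 21 °C, against 34.6, 48.1 and 45.5 TPM in Col at 27 °C and 13.5, 12 and 10.4 TPM at 21 °C. PIF5 rose in both, by 0.76 in h3.3kd and 1.75 in Col (interaction -0.98, adjusted p = 0.00126). HAT1, a homeodomain factor induced by shade, had 28.8 ± 3.3 TPM in h3.3kd at 27 °C and 28.3 ± 9.03 TPM at 21 °C, against 62.0 ± 1.21 and 30.6 ± 1.25 TPM in Col (SD, n = 3 each; interaction -0.92, adjusted p = 0.0132). PIF3 and HAT3 were the other called members, with interactions of -0.52 and -0.47. IBH1, a bHLH protein that restrains cell elongation, went the other way: it rose by 1.37 in h3.3kd and by 0.75 in Col (interaction 0.62, adjusted p = 0.0169).

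Of 9 tested auxin synthesis genes 3 (33.3%) were more negative in h3.3kd and 0 more positive (1 more positive under each of 2 other scalings). The median interaction was -0.09. The 3 are YUCCA genes, which code for the flavin monooxygenases of the last step to auxin. YUC8 was at 13.8, 17.3 and 10.5 TPM in h3.3kd at 27 °C and 3.91, 3.2 and 2.31 TPM at 21 °C, against 35.9, 28.7 and 34.2 TPM in Col at 27 °C and 2.13, 3.22 and 3.61 TPM at 21 °C. YUC8 rose in both genotypes and was lower in every h3.3kd library at 27 °C than in any Col library at 27 °C, with responses of 1.84 in h3.3kd and 3.1 in Col (interaction -1.26 ± 0.27, adjusted p = 0.00448). YUC9 was at 3.39, 4.19 and 2.71 TPM in h3.3kd at 27 °C and 1.79, 1.95 and 1.92 TPM at 21 °C, against 5.55, 8.48 and 6.68 TPM in Col at 27 °C and 0.907, 0.997 and 1.04 TPM at 21 °C. Its response was 0.60 in h3.3kd and 1.98 in Col (interaction -1.38 ± 0.23, adjusted p = 0.00103). YUC2 had a response of 0.35, not called, in h3.3kd and rose by 1.20 in Col (interaction -0.85, adjusted p = 0.0113).

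Of 23 Aux/IAA genes, which code for repressors of auxin signalling, 6 (26.1%) were more negative and 1 (4.35%) more positive in h3.3kd (median -0.20). IAA29, a strongly warmth-induced member, had 15.9 ± 2.43 TPM in h3.3kd at 27 °C and 1.97 ± 0.506 TPM at 21 °C, against 39.1 ± 2.27 and 3.67 ± 0.172 TPM in Col. Its interaction of -0.59 (adjusted p = 0.0392) was lost when any 1 of 9 of the 12 libraries was left out. For IAA19 the interaction was -0.82 (adjusted p = 0.0273), lost without any 1 of 6 libraries, and for IAA6 it was -1.52 (adjusted p = 0.0269), lost without any 1 of 8. IAA6 would not have passed the filter without Col at 27 °C, the group where it was high. Elsewhere it reached 1 TPM in h3.3kd at 27 °C replicate 2 and Col at 21 °C replicate 1 alone. Without Col at 27 °C replicate 3 the count of more negative Aux/IAA genes was 0, and leaving out each other library gave 2 to 5.

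SAUR proteins promote cell expansion, and GH3 enzymes join auxin to amino acids. Of 15 tested, 5 (33.3%) were more positive and 1 (6.67%) more negative in h3.3kd, against 8.68% and 9.83% over all genes (median 0.55). SAUR24 was at 23.9, 25.1 and 25 TPM in h3.3kd at 27 °C and 3.61, 2.73 and 3.32 TPM at 21 °C, against 13.7, 10.6 and 10.8 TPM in Col at 27 °C and 5.07, 3.9 and 3.68 TPM at 21 °C. SAUR24 rose by 2.61 in h3.3kd and 1.29 in Col (interaction 1.32 ± 0.18, adjusted p = 0.00025). SAUR23 rose by 2.61 in h3.3kd and 1.42 in Col (interaction 1.19, adjusted p = 0.00232). The SAUR genes of this cluster are similar in sequence, and reads could have been split between them. GH3.3 rose by 2.59 in h3.3kd and 1.85 in Col (interaction 0.74, adjusted p = 0.0166), whereas GH3.6 rose by 0.71 and 1.30 (interaction -0.59). Means of GH3.3 were 26.4 and 3.53 TPM in h3.3kd at 27 and 21 °C, below the 32.2 and 8.21 TPM in Col. The count of 5 was 3 without Col at 21 °C replicate 3 and 3 without h3.3kd at 27 °C replicate 2.

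**Figure D3:**
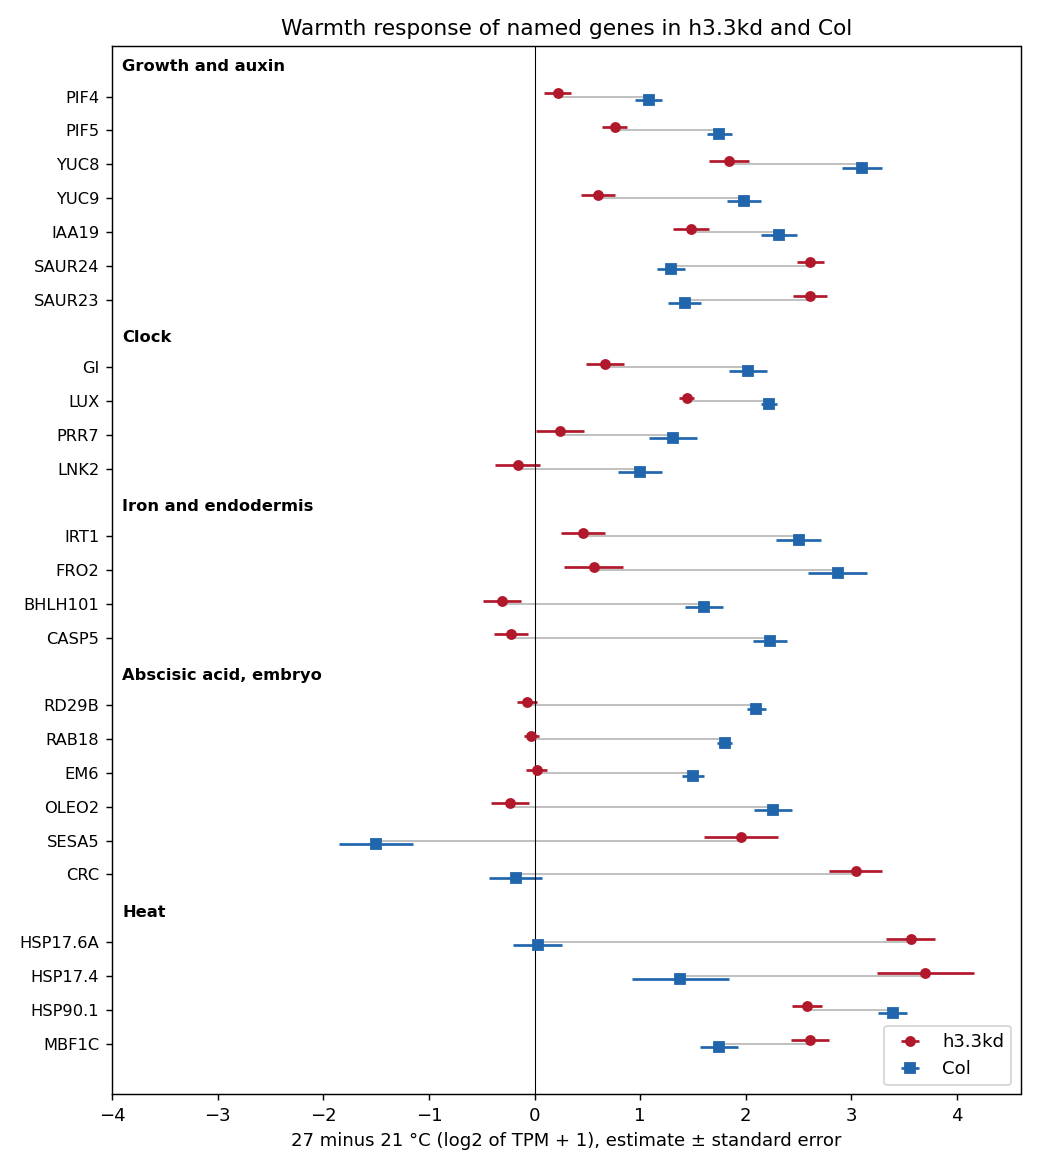
Warmth response (27 minus 21 °C, log2 of TPM + 1; points, with standard errors as lines) of 25 genes in h3.3kd (red circles) and Col (blue squares), grouped by role. PIF4, the YUCCA, clock, iron and endodermis genes lie further right in Col, while SAUR24, SAUR23, SESA5, CRC and HSP17.6A lie further right in h3.3kd; LUX and EM6 were added to the plot after their values were seen.

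Of 27 cell wall expansion genes, 9 (33.3%) were more negative in h3.3kd, 2 (7.41%) more positive and 16 not called (median -0.13). XTH17, an enzyme that cuts and rejoins xyloglucan, fell by 0.45 in h3.3kd, with 5.21 ± 1.09 TPM at 27 °C and 7.41 ± 0.731 TPM at 21 °C, and rose by 1.15 in Col, with 27.7 ± 6.48 and 11.8 ± 0.845 TPM (interaction -1.59, adjusted p = 0.000278). The related XTH15 fell by 0.81 in h3.3kd and rose by 0.51 in Col (interaction -1.32, adjusted p = 0.00237). EXPA1, an expansin, rose more in h3.3kd, by 1.46 against 0.46 in Col (interaction 1.01, adjusted p = 0.000592). Of 27 gibberellin and brassinosteroid genes, 10 (37%) were more negative, 0 more positive and 17 not called (median -0.27). DWF4, a rate-limiting hydroxylase of brassinosteroid synthesis, fell by 0.42 in h3.3kd and rose by 0.44 in Col (interaction -0.86 ± 0.10, adjusted p = 5.64e-05). GA2OX6, which inactivates gibberellin, had a response of 0.08, not called, in h3.3kd and rose by 1.66 in Col (interaction -1.58, adjusted p = 0.000242).

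The clock genes called for the interaction were on one side. Of 26 tested, 8 (30.8%) had a more negative response in h3.3kd and 0 a more positive one, with a median of -0.27. In h3.3kd 16 of the 26 rose with warmth and in Col 24, with 0 falling in either. GI (GIGANTEA), an evening gene of the clock and of flowering, was at 0.81, 1.39 and 1.02 TPM in h3.3kd at 27 °C and 0.23, 0.353 and 0.318 TPM at 21 °C, against 3.74, 4.83 and 5.71 TPM in Col at 27 °C and 0.35, 0.433 and 0.436 TPM at 21 °C. GI rose in both genotypes, by 0.67 in h3.3kd and 2.02 in Col (interaction -1.35 ± 0.25, adjusted p = 0.00206). Outside Col at 27 °C, it reached 1 TPM in h3.3kd at 27 °C replicates 2 and 3 alone. GI would therefore not have passed the filter without Col at 27 °C, the group where it was high. Interactions of LNK2, a co-activator of the clock, and of the Dof-type factor gene AT1G69570 were -1.16 and -1.09 (adjusted p = 0.0153 and 0.00266). PRR7, a repressor active during the day, had an interaction of -1.07 (adjusted p = 0.0334) that was lost without any 1 of 9 libraries. LUX, a subunit of the evening complex, rose by 1.44 in h3.3kd and 2.22 in Col. CDF2, LKP2 and CHE were the other called members. The count of 8 was 4 or 5 without Col at 21 °C replicate 2 or 3, Col at 27 °C replicate 2 or 3, or h3.3kd at 27 °C replicate 2.

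The iron genes held 10 of 22 members (45.5%) more negative in h3.3kd and 2 (9.09%) more positive, with a median of -0.61. The share of more positive members is near the 8.68% over all genes. Plants short of iron take it up at the root surface by the reductase FRO2 and the transporter IRT1, and a group of bHLH factors switches these genes on. IRT1 was at 26.8, 46.9 and 30.8 TPM in h3.3kd at 27 °C and 26.1, 22.6 and 24.3 TPM at 21 °C, against 115, 54.7 and 71.8 TPM in Col at 27 °C and 13.1, 13.5 and 11.8 TPM at 21 °C. FRO2 was at 7.12, 14.1 and 7.48 TPM in h3.3kd at 27 °C and 5.65, 5.33 and 6.73 TPM at 21 °C, against 48, 19.7 and 24.1 TPM in Col at 27 °C and 3.75, 3.07 and 2.34 TPM at 21 °C. For both genes every Col library at 27 °C was above every other library, and the Col libraries at 27 °C differed among themselves by over 2 times. IRT1 had a response of 0.46, not called, in h3.3kd and rose by 2.50 in Col (interaction -2.04 ± 0.30, adjusted p = 0.000409). FRO2 had a response of 0.56, not called, in h3.3kd and rose by 2.87 in Col (interaction -2.32 ± 0.39, adjusted p = 0.00101). The factors BHLH100 and BHLH101 had responses of -0.32 and -0.31, not called, in h3.3kd and rose by 1.79 and 1.60 in Col (adjusted p of the interaction 0.000788 and 0.000164). CYP82C4, BHLH38, BTS, OPT3, FRO3 and the uncharacterized gene AT2G30766 completed the 10, and AT2G30766 passed the filter through Col at 27 °C alone. The 2 more positive members were the ferritins FER1 and FER4, which store iron, with interactions of 0.67 and 0.26. Ferritin FER1 had a response of 0.08, not called, in h3.3kd and fell by 0.58 in Col. The count of 2 was 1 without Col at 21 °C replicate 2.

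Of 21 tested genes of the root endodermis and of suberin, a waxy barrier polymer, 8 (38.1%) were more negative in h3.3kd. Of the rest, 0 were more positive and 13 not called (median -0.39). FAR1, a reductase that makes fatty alcohols for suberin, was at 17.2, 21.2 and 13.1 TPM in h3.3kd at 27 °C and 5.52, 4.94 and 4.54 TPM at 21 °C, against 143, 112 and 116 TPM in Col at 27 °C and 3.33, 3.39 and 3.64 TPM at 21 °C. FAR1 rose by 1.58 in h3.3kd and by 4.80 in Col (interaction -3.23 ± 0.20, adjusted p = 1.34e-07). CASP5, a membrane protein that lays out the Casparian strip, was at 6.43, 8.07 and 4.71 TPM in h3.3kd at 27 °C and 7.55, 8.29 and 6.65 TPM at 21 °C, against 26.6, 25.5 and 26 TPM in Col at 27 °C and 4.56, 5.96 and 3.96 TPM at 21 °C. In h3.3kd its 6 libraries overlapped between temperatures, while in Col they did not (interaction -2.45 ± 0.22, adjusted p = 6.95e-06). CASP2 had an interaction of -0.96 (adjusted p = 0.00434), and CASP4, CASP1, PER64 and KCS20 were also called. Products named for peroxidases, a family picked after its values were seen, had 17 of 46 (37%) more negative and 1 (2.17%) more positive. The count of 1 was 2 without h3.3kd at 27 °C replicate 1 or h3.3kd at 21 °C replicate 2.

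Seedlings hold root and shoot, and in bulk samples fewer cells of a type and less RNA per cell cannot be told apart. The summed level of 13 root marker genes was 170.7 to 208 TPM in h3.3kd at 27 °C and 130.6 to 144.6 TPM at 21 °C, against 180.8 to 189.2 TPM in Col at 27 °C and 114.3 to 129.4 TPM at 21 °C. At most 1 of the 13 was at 0 in any library. The sums rose with warmth in both genotypes and overlapped between genotypes at 27 °C, while single markers differed. Of the 10 tested, 2 rose and 4 fell in h3.3kd (median -0.08), against 4 and 0 in Col (median 0.26). The median interaction was -0.38. Of the 10, 3 (30%) were more negative and 0 more positive (PRP3, EXPA7 and RSL4, of root hairs). The count of 3 was 1 without Col at 21 °C replicate 1 or h3.3kd at 27 °C replicate 3. The part of root share in the iron and endodermis results was not tested.

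Several genes of abscisic acid and of desiccation were as high in h3.3kd at 21 °C as in Col at 27 °C. RD29B, a classic target of abscisic acid, was at 137, 118 and 165 TPM in h3.3kd at 27 °C and 148, 140 and 150 TPM at 21 °C, against 140, 137 and 136 TPM in Col at 27 °C and 34.5, 29 and 31.2 TPM at 21 °C. RAB18, a dehydrin that protects drying cells, was at 260, 225 and 289 TPM in h3.3kd at 27 °C and 247, 265 and 273 TPM at 21 °C, against 260, 245 and 247 TPM in Col at 27 °C and 70.6, 71.1 and 73 TPM at 21 °C. For both genes the Col libraries at 21 °C lay below all 9 others, which overlapped. RD29B had a response of -0.07, not called, in h3.3kd and rose by 2.1 in Col (interaction -2.17 ± 0.13, adjusted p = 1.34e-07). RAB18 had -0.03, not called, in h3.3kd and rose by 1.80 in Col (interaction -1.82 ± 0.10, adjusted p = 8.24e-08). The late embryogenesis abundant (LEA) gene AT2G42560 was at 42.2, 37.6 and 48.6 TPM in h3.3kd at 27 °C and 45, 43 and 50.6 TPM at 21 °C, against 54.3, 48.2 and 47.7 TPM in Col at 27 °C and 5.5, 5.52 and 6.81 TPM at 21 °C. It had the same pattern, with an interaction of -2.99 ± 0.14 (adjusted p = 2.04e-08).

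The promoters of RD29B and RAB18, and of the LEA gene EM6, are shown because genes induced by abscisic acid are known for the abscisic acid response element, to which bZIP factors such as ABI5 bind. The windows are the 250 bases before the annotated gene start in TAIR10.1 (RefSeq), at chr5:21236771-21237020 on the plus strand, chr5:26519448-26519697 on the minus strand and chr2:16780369-16780618 on the minus strand. Capitals mark matches to ACGTGNC on either strand.
RD29B: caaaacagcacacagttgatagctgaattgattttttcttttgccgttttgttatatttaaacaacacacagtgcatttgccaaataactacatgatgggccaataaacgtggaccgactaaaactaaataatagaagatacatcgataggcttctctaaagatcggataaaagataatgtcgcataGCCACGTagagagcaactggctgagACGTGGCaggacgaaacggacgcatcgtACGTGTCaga
RAB18: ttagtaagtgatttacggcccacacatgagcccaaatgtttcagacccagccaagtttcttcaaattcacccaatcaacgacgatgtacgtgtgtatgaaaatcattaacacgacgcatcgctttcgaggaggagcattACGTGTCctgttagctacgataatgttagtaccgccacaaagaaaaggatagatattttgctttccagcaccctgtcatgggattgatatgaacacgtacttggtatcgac
EM6: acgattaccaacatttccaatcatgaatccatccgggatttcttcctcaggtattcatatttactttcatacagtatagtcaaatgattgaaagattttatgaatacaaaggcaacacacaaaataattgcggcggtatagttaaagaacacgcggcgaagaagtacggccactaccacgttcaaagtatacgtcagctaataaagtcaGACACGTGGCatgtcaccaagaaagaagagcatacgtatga

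RD29B held 3 matches, RAB18 1 and EM6 2 that overlap each other. ACGTGNC was in 28.6% (16 of 56) of the windows of LEA products, 31.8% (7 of 22) of the iron genes and 42.3% (11 of 26) of the clock genes, against 9.7% over all genes tested. The share was 8.61% in genes with a more positive and 11.6% in genes with a more negative response in h3.3kd. The G-box CACGTG, which can overlap ACGTGNC and is bound by PIF and bZIP factors, was in 5.72% and 9.74% of them and in 7.51% of all windows. The evening element AAAATATCT was in 23.1% (6 of 26) of clock windows and 2.49% of all. The cold response core CCGAC was in 14.3% and 14.4% of windows of genes more positive and more negative in h3.3kd, against 12.9% of all. A match is a description of the letters and not a site of binding.

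The wider LEA family, picked after its values were seen, held 16 of 56 tested products (28.6%) more negative in h3.3kd and 2 (3.57%) more positive (median -0.31). In h3.3kd 11 of the 56 rose and 18 fell with warmth, against 27 and 5 in Col. AT3G17520 had 201 and 209 TPM in h3.3kd at 27 and 21 °C, against 220 and 49.7 TPM in Col, as group means. EM6 had means of 49.1 and 48.3 TPM in h3.3kd at 27 and 21 °C, against 39.5 and 13.4 TPM in Col (interaction -1.48 ± 0.14, adjusted p = 1.2e-05). AT3G02480 differed from these: it fell by 1.53 in h3.3kd, with means of 146 TPM at 27 °C and 421 TPM at 21 °C, and rose by 0.29 in Col, with 38.8 and 31.8 TPM. ABI5, the bZIP factor, had a response of -0.08, not called, in h3.3kd and rose by 0.75 in Col (interaction -0.83). M17, another LEA-type gene, was instead low in h3.3kd at both temperatures, with 0.633 ± 0.666 and 1.58 ± 1.46 TPM, against 67.5 ± 11.8 and 16.0 ± 5.40 TPM in Col (interaction -2.63, adjusted p = 0.00152).

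Of 24 tested cold and abscisic acid genes, out of 28 listed, 5 (20.8%) were more negative and 3 (12.5%) more positive. The shares over all genes were 9.83% and 8.68%. The cold-regulated genes KIN1, KIN2, LTI30 and COR15A were not called for the interaction. COR413IM1, a chloroplast membrane protein of cold tolerance, had a response of -0.30, not called, in h3.3kd and fell by 1.58 in Col (interaction 1.28 ± 0.19, adjusted p = 0.000487). The zinc finger gene ZAT12 had 0.47, not called, in h3.3kd and fell by 0.63 in Col (interaction 1.10, adjusted p = 0.0121).

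Seed storage genes gave the most positive median of the lists, 1.22, with 7 of 12 tested (58.3%) more positive and 2 (16.7%) more negative in h3.3kd. In h3.3kd 4 of the 12 rose and 2 fell with warmth (median 0.08), against 3 and 7 in Col (median -0.74). CRC, coding for cruciferin 3, a major seed storage globulin, was at 134, 89.2 and 124 TPM in h3.3kd at 27 °C and 12, 20.2 and 8.92 TPM at 21 °C, against 30.1, 44.5 and 30.8 TPM in Col at 27 °C and 46.9, 27.9 and 46.2 TPM at 21 °C. SESA5, a storage albumin, was at 40.3, 26.9 and 27 TPM in h3.3kd at 27 °C and 5.86, 14.1 and 4.43 TPM at 21 °C, against 6.08, 18.9 and 8.4 TPM in Col at 27 °C and 33.5, 25.6 and 31.8 TPM at 21 °C. The level of CRC was above all other libraries in h3.3kd at 27 °C (response 3.04 in h3.3kd and -0.18, not called, in Col; interaction 3.22 ± 0.35, adjusted p = 3.9e-05). SESA5 rose by 1.95 in h3.3kd and fell by 1.5 in Col (interaction 3.45 ± 0.50, adjusted p = 0.000363). The albumin genes SESA3 and SESA1 had responses of -0.50 and -0.09, not called, in h3.3kd and fell by 3.32 and 2.39 in Col. The interaction of SESA1 was lost without any 1 of 7 libraries. PAP85, a cupin of the vicilin type outside that list, rose in both, by 3.22 in h3.3kd and 0.72 in Col (interaction 2.51, adjusted p = 7.84e-05). OLEO2, an oleosin of oil bodies, and EM6 were the 2 more negative members. OLEO2 had a response of -0.23, not called, in h3.3kd and rose by 2.26 in Col (interaction -2.49, adjusted p = 2.37e-05). The summed level of the 14 listed genes was 296.2 to 376 TPM in h3.3kd at 27 °C and 123 to 188.7 TPM at 21 °C, against 158.9 to 210.3 TPM in Col at 27 °C and 162.1 to 229.6 TPM at 21 °C. These are markers of another stage, and the part of seed remains in the results was not tested. The count of 7 was 3 without h3.3kd at 21 °C replicate 1 and 4 without Col at 21 °C replicate 1, Col at 27 °C replicate 1, h3.3kd at 21 °C replicate 3, or h3.3kd at 27 °C replicate 1 or 2.

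Small heat shock proteins, which hold unfolding proteins in solution, had 5 of 13 members (38.5%) more positive in h3.3kd and 0 more negative (median 0.65). HSP17.6A was at 9.63, 15.2 and 19.4 TPM in h3.3kd at 27 °C and 0, 0.242 and 0.725 TPM at 21 °C, against 3.18, 3.76 and 3.42 TPM in Col at 27 °C and 3.6, 3.76 and 2.8 TPM at 21 °C. The gene was near 0 in h3.3kd at 21 °C alone and its h3.3kd libraries at 27 °C were above all others. It rose by 3.56 in h3.3kd, with a response of 0.03, not called, in Col (interaction 3.53 ± 0.32, adjusted p = 6.95e-06). HSP17.4 was at 5.84, 28.2 and 29.6 TPM in h3.3kd at 27 °C and 0.463, 0.569 and 0.213 TPM at 21 °C, against 5.98, 7.91 and 9.05 TPM in Col at 27 °C and 1.88, 4.88 and 1.1 TPM at 21 °C. Replicate 1 of h3.3kd at 27 °C lay below the Col libraries at that temperature, and the other 2 above them, and the interaction of 2.32 ± 0.65 (adjusted p = 0.0227) was lost without Col at 21 °C replicate 2 or h3.3kd at 27 °C replicate 2 and with a robust prior. HSP17.6II was listed at 0 in all 3 libraries of h3.3kd at 21 °C and at 2.92, 4.16 and 5.99 TPM at 27 °C, against 2.33, 0.396 and 1.5 TPM in Col at 27 °C and 0, 0.396 and 0.374 TPM at 21 °C. HSP17.6II would not have passed the filter without h3.3kd at 27 °C, the group where it was high. AT1G53540, with an HSP20-like product, and HSP23.6-MITO were the other called members. The interaction of AT1G53540 was lost without any 1 of 4 libraries. The count of 5 was 3 without h3.3kd at 27 °C replicate 2 and 2 with the filter at 5 TPM, which tested fewer members.

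The promoter of HSP17.4 (chr3:16984868-16985117, minus strand, same windows) is shown for the heat shock element, with matches to its core GAANNTTC in capitals.
HSP17.4: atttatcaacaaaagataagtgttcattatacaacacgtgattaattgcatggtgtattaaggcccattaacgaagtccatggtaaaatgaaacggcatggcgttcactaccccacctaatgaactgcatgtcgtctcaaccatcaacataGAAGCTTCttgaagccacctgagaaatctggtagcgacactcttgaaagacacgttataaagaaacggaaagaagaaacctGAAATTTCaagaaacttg

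HSP17.4 held 2 matches. The core was in 2 of the 13 small heat shock windows (15.4%), in 9.1% of all windows, and in 8.14% and 7.5% of windows of genes more positive and more negative in h3.3kd. The window of HSP17.6A was not among the 2.

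Of 31 cytosolic chaperones and heat regulators tested, 3 (9.68%) were more positive and 3 (9.68%) more negative, near the 8.68% and 9.83% over all genes (median -0.04). HSP90.1, a heat-inducible chaperone of signalling proteins, was at 57.4, 75.1 and 82.5 TPM in h3.3kd at 27 °C and 9.79, 11.3 and 12.2 TPM at 21 °C, against 49.1, 52.5 and 59.9 TPM in Col at 27 °C and 4.42, 3.37 and 4.96 TPM at 21 °C. HSP90.1 rose in both, by 2.58 in h3.3kd and 3.39 in Col, and was higher in every h3.3kd library at 21 °C than in any Col library at 21 °C (interaction -0.82, adjusted p = 0.00923). MBF1C, a regulator of thermotolerance, rose by 2.61 in h3.3kd and 1.75 in Col, and HSFA2, a heat shock factor, by 1.70 and 0.63. Both of these interactions (0.86 and 1.07; adjusted p = 0.0303 and 0.0421) were lost without any 1 of 8 libraries. The count of 3 more positive members was 5 without h3.3kd at 27 °C replicate 1 and 0 to 5 when each library was left out. In the endoplasmic reticulum, 2 of 21 chaperone genes (9.52%) were more positive and 1 (4.76%) more negative, against 8.68% and 9.83% over all genes. The count of 2 was up to 5 under another scaling, and the count of 1 was 0 without any 1 of 3 libraries. BIP3, an HSP70 induced by unfolded proteins, was at 0.489, 1.39 and 1.87 TPM in h3.3kd at 27 °C and 1.91, 1.95 and 1.21 TPM at 21 °C, against 0.355, 0.795 and 0.787 TPM in Col at 27 °C and 15.8, 11.1 and 11.3 TPM at 21 °C. BIP3 was high in Col at 21 °C alone, had a response of -0.30, not called, in h3.3kd and fell by 3.05 in Col (interaction 2.76 ± 0.33, adjusted p = 7.71e-05).

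Among the single genes with large differences were CER1, AT1G06080 and AT4G22490. CER1, an enzyme of wax alkane formation in the cuticle, was at 24.1, 20 and 27.9 TPM in h3.3kd at 27 °C and 15.1, 15.9 and 16.1 TPM at 21 °C, against 2.83, 3.98 and 2.54 TPM in Col at 27 °C and 16.2, 16.3 and 17.1 TPM at 21 °C. CER1 rose by 0.57 in h3.3kd and fell by 2.11 in Col (interaction 2.67 ± 0.18, adjusted p = 3.97e-07). AT1G06080, a delta 9 desaturase, was at 0.362, 0.368 and 0.767 TPM in h3.3kd at 27 °C and 1.83, 1.2 and 1.29 TPM at 21 °C, against 25, 20.7 and 20.2 TPM in Col at 27 °C and 1.24, 2.27 and 2.14 TPM at 21 °C. The Col libraries at 27 °C were over 8 times above all others. The gene fell by 0.71 in h3.3kd and rose by 3.01 in Col (interaction -3.71 ± 0.25, adjusted p = 3.97e-07). AT4G22490, a lipid-transfer product, fell by 3.68 in h3.3kd, to 2.24 ± 0.570 TPM against 40.4 ± 6.49 TPM at 21 °C, and by 0.81 in Col, to 96.1 ± 9.41 against 169 ± 1.70 TPM.

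Other genes moved in opposite directions in the 2 genotypes. TGG2 (chr5:9072708-9075777), a myrosinase that splits glucosinolates upon wounding, was at 42.8, 38.3 and 37.4 TPM in h3.3kd at 27 °C and 3.39, 3.83 and 4.12 TPM at 21 °C, against 31.1, 20.1 and 22 TPM in Col at 27 °C and 34.3, 36 and 31.8 TPM at 21 °C. Its h3.3kd libraries at 21 °C were below all others, and it rose by 3.08 in h3.3kd and fell by 0.49 in Col (interaction 3.57 ± 0.18, adjusted p = 2.04e-08). AT1G47980 (chr1:17691811-17693887), a desiccation-like product, was at 2.11, 2.35 and 2.8 TPM in h3.3kd at 27 °C and 9.53, 10.3 and 12.1 TPM at 21 °C, against 9.71, 9.66 and 12.9 TPM in Col at 27 °C and 2.38, 2.52 and 3.57 TPM at 21 °C. The levels of the 2 genotypes mirrored each other: it fell by 1.76 in h3.3kd and rose by 1.62 in Col (interaction -3.39 ± 0.22, adjusted p = 2.14e-07). Of 2 uncharacterized genes, AT5G42530 rose by 1.41 in h3.3kd and fell by 2.21 in Col (interaction 3.62), and AT3G15280 fell by 0.62 in h3.3kd and rose by 2.24 in Col (interaction -2.86).

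Sugar-related genes gave 8 of 18 (44.4%) more negative and 1 (5.56%) more positive, with a median of -0.53. The list holds genes that rise when sugar is short and inositol oxygenases, which feed inositol to the cell wall. MIOX2 was at 2.56, 4.73 and 5.12 TPM in h3.3kd at 27 °C and 83.2, 131 and 58.6 TPM at 21 °C, against 84.1, 105 and 96.5 TPM in Col at 27 °C and 236, 187 and 184 TPM at 21 °C. MIOX2 fell in both, by 4.12 in h3.3kd and 1.08 in Col (interaction -3.05 ± 0.33, adjusted p = 3.4e-05). Asparagine synthetase ASN1 had 99.5 ± 15.8 and 153 ± 52.9 TPM in h3.3kd at 27 and 21 °C, against 494 ± 105 and 362 ± 90.6 TPM in Col, with an interaction of -1.03 (adjusted p = 0.0364) that was lost without any 1 of 8 libraries. EXL1, a cell growth gene of low carbon, fell by 0.84 in h3.3kd and rose by 0.63 in Col (interaction -1.47, adjusted p = 0.00675). MIOX4 was the positive member: it was listed at 0 in h3.3kd at 27 °C and at 0.568, 1.71 and 0.931 TPM at 21 °C, against 0.475, 1.02 and 0.480 TPM in Col at 27 °C and 16.8, 7.93 and 7.25 TPM at 21 °C. MIOX4 would not have passed the filter without Col at 21 °C, the group where it was high. Its call on the scale of log2 of TPM + 1 was lost with a pseudocount of 0.1.

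Photosynthetic antenna and Rubisco genes had 9 of 26 (34.6%) more negative and 1 (3.85%) more positive (median -0.25). Members differed in the direction of the response itself. LHCB1.4, an abundant antenna protein of photosystem II, was at 365, 394 and 372 TPM in h3.3kd at 27 °C and 1030, 937 and 1130 TPM at 21 °C, against 610, 832 and 823 TPM in Col at 27 °C and 951, 1174 and 1171 TPM at 21 °C. It fell by 1.45 in h3.3kd and 0.55 in Col (interaction -0.90 ± 0.16, adjusted p = 0.00126). LHCB1 genes are similar in sequence, and reads could have been split. LHCB4.2 rose, by 1.86 in h3.3kd and 2.57 in Col (interaction -0.71, adjusted p = 0.000804). The 1 positive member, LHCB4.3, a minor antenna protein, was at 31.2, 38.4 and 28.5 TPM in h3.3kd at 27 °C and 5.32, 6.06 and 6.41 TPM at 21 °C, against 12.4, 8.45 and 9.44 TPM in Col at 27 °C and 7.26, 7.86 and 8.07 TPM at 21 °C. LHCB4.3 rose by 2.27 in h3.3kd and 0.33 in Col (interaction 1.94 ± 0.19, adjusted p = 1.23e-05).

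Of 20 salicylic acid genes listed, 12 were tested, with 4 (33.3%) more positive and 0 more negative. Of the 4, PR1 and PCC1 reached 1 TPM in the libraries of Col at 21 °C alone, so they passed the filter through the group where they were high, and their direction was given by it. PR5, an antifungal marker of this defence, was at 0, 0 and 0 TPM in h3.3kd at 27 °C and 0.257, 0.473 and 0.709 TPM at 21 °C, against 0, 1.29 and 0.418 TPM in Col at 27 °C and 5.6, 8.9 and 5.6 TPM at 21 °C. PR1 was listed at 0 in all 6 h3.3kd libraries, against 0.207, 0.193 and 0 TPM in Col at 27 °C and 1.76, 1.16 and 1.10 TPM at 21 °C. Outside Col at 21 °C, PR5 reached 1 TPM in Col at 27 °C replicate 2 alone. It would therefore not have passed the filter without the group where it was high, as for PR1 and PCC1. The difference for PR5 and PR1 came from Col at 21 °C being above the rest, and both calls were lost with a pseudocount of 0.1. The count of 4 was 1, 1 and 2 without Col at 21 °C replicates 1, 2 and 3, where PR1 and PCC1 were no longer tested. Of 17 jasmonate genes 4 (23.5%) were more positive and 1 (5.88%) more negative, against 8.68% and 9.83% over all genes. JAZ9, a repressor of jasmonate signalling, rose by 1.0 in h3.3kd and 0.30 in Col (interaction 0.70 ± 0.10, adjusted p = 0.000316). Its means were 32.3 and 15.6 TPM in h3.3kd at 27 and 21 °C, below the 38.4 and 31.1 TPM in Col. VSP1, a storage protein induced by jasmonate, fell by 0.97 in h3.3kd and had a response of 0.34, not called, in Col (interaction -1.31, adjusted p = 0.0126). The count of 4 was 2 without Col at 27 °C replicate 2 or h3.3kd at 21 °C replicate 2.

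Many genes named for ribosomal proteins and histones had a more positive response in h3.3kd than in Col. The families described here were picked by product name after their values were seen. Of 360 tested products named for ribosomal proteins, plastid and mitochondrial ones included, 190 (52.8%) were more positive and 1 (0.278%) more negative in h3.3kd (median 0.36). In h3.3kd 24 rose and 198 fell with warmth (median -0.24), against 8 and 299 in Col (median -0.56). The count of 190 was 203 and 207 under the 2 other scalings and 160 to 206 when 1 library was left out. RPSAb, a part of the small subunit, rose by 0.50 in h3.3kd and fell by 0.73 in Col. Of 22 small nuclear ribonucleoprotein products, which act in splicing, 9 (40.9%) were more positive and 0 more negative.

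Among 31 histone superfamily products, 15 (48.4%) were more positive and 0 more negative. They include the 3 H3.3 genes and 2 of the 5 H3.1 genes. AT3G53730 had means of 493 and 451 TPM in h3.3kd at 27 and 21 °C, against 42.3 and 101 TPM in Col (interaction 1.37 ± 0.11). The H3.1 gene AT5G10400 fell by 0.19 in h3.3kd and 0.77 in Col (interaction 0.58, adjusted p = 0.000701). The count of 2 H3.1 genes was 1 without h3.3kd at 27 °C replicate 1 or any 1 of 6 other libraries. Histone genes similar in sequence could share reads. The 19 tested genes that place or remove H2A.Z and H3.3, such as ARP6, PIE1, HIRA and ASF1A, had 0 calls by limma, 3 at an unadjusted p under 0.05, interactions between -0.42 and 0.22 and a median of -0.02. Without Col at 21 °C replicate 3, 1 of them was called more negative. Of 25 cell cycle genes, 2 were more positive, the cytokinesis syntaxin KNOLLE (0.62) and CYCD3;3 (0.52), and 0 more negative; the share of 8% is near the 8.68% over all genes.

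The remaining lists had 0 to 2 calls each. Of 12 flavonoid genes, 0 were called by limma and 4 had an unadjusted p under 0.05 (median 0.38), and 1 was called when h3.3kd at 27 °C replicate 2 was left out and 2 when Col at 27 °C replicate 1 or h3.3kd at 27 °C replicate 1 was left out. Aliphatic glucosinolate genes had 1 of 14 (7.14%) called more positive, near the 8.68% over all genes. It was MYB29 (1.31), which reached 1 TPM in Col at 21 °C alone and passed the filter through that group. Of indolic ones 2 of 10 (20%) were more positive, GGP1 (0.66) and CYP83B1 (0.33). The count of more positive aliphatic genes was 5 without h3.3kd at 27 °C replicate 1 and 0 without any 1 of the 3 libraries of Col at 21 °C, where MYB29 was not tested. Without h3.3kd at 27 °C replicate 2, 2 aliphatic genes were more negative. The count of indolic genes was 1 without any 1 of 8 libraries. Of 11 flowering genes 1 (9.09%) was more negative, near the 9.83% over all genes. It was SPL3 (-0.77), a call lost without any 1 of 3 libraries. Of 3 floral organ genes 0 were called and 1 had an unadjusted p under 0.05.

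**Figure D4:**
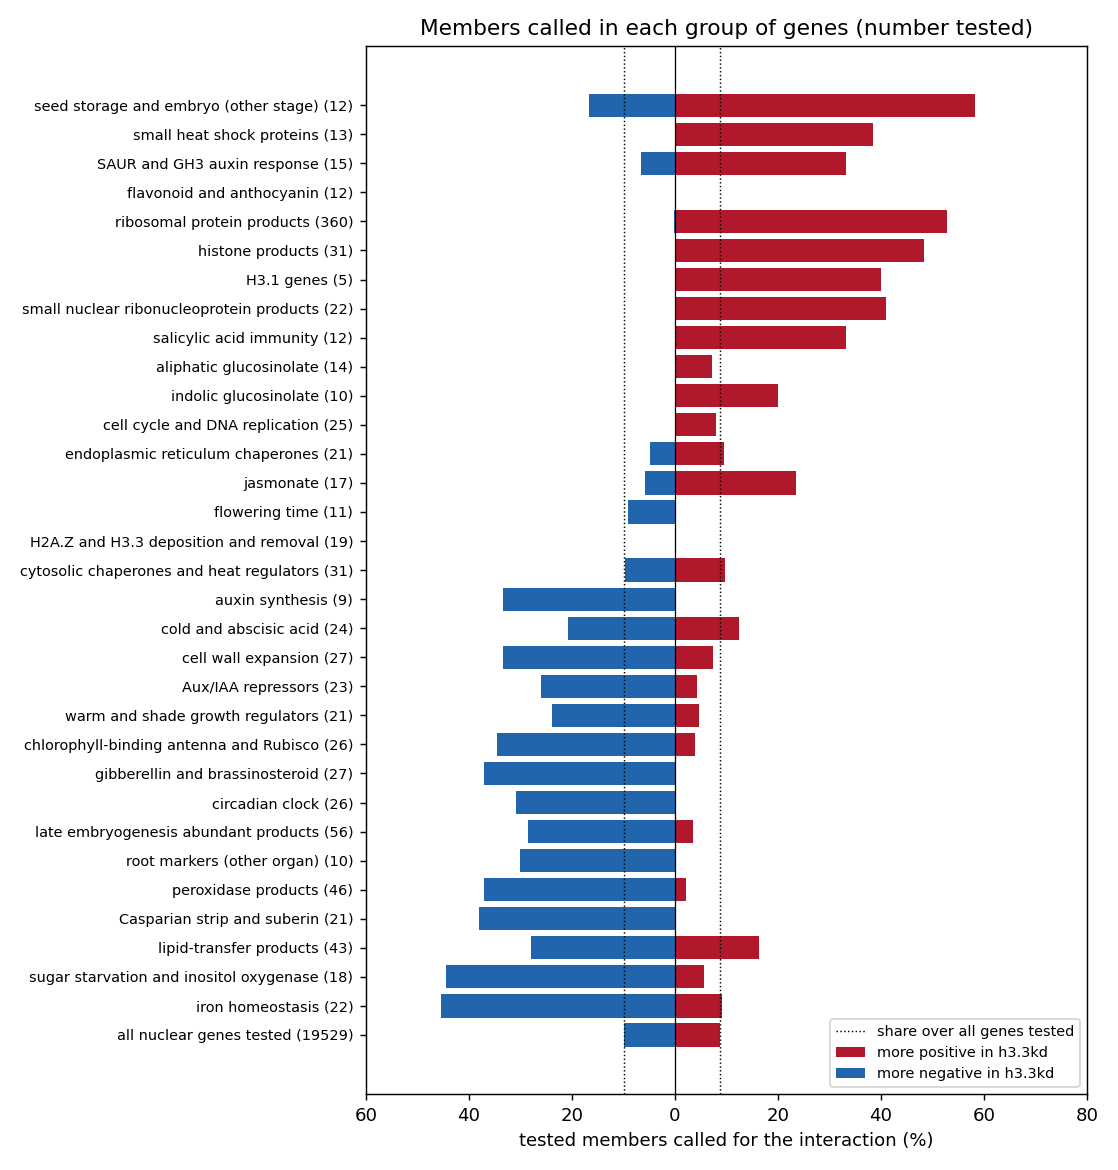
Share of tested members (horizontal axis, percent; number tested in brackets) called with a more positive (red, to the right) or more negative (blue, to the left) warmth response in h3.3kd, for groups of genes ordered by their median interaction. Dotted lines mark the shares over all genes, 8.68% and 9.83%; groups named as products were picked after their values were seen.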

How the data were processed

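Total RNA was sequenced by the authors after a NEBNext Ultra library preparation, per the labels' protocols. The authors deposited TPM values, each column summing to a fixed total. The genome build was TAIR10, and the tools were HTSeq 0.11.2, HISAT2, DESeq2 1.26.0 and fastp 0.20.1, with their roles unstated, per the submitters' processing notes. How TPM and gene lengths were computed, strandedness and depth are not given in the sources used here. Columns were matched to libraries by name, and 0 columns were left unmapped. All 27445 nuclear loci were found in the RefSeq annotation of TAIR10.1, which gave coordinates, products and promoter windows.

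TPM are not counts, so log2(TPM + 1) of the 12 libraries was fitted with limma 3.58.1 (R 4.3.3), with 4 group means, a mean-dependent prior and 8 residual degrees of freedom. Fold changes on this scale understate those of low genes. Tests were two-sided with Benjamini-Hochberg adjustment over 19529 genes, called at adjusted p under 0.05. The script was tested on simulated data. Whether replicates were separate cultures is not in the labels, and p-values therefore cover only differences among the libraries at hand, possibly technical ones. The labels' replicate numbers did not pair libraries (deviations of same-numbered libraries correlated at -0.094 to 0.10).

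The members and the 28 gene lists were chosen with earlier results of these data known, and 7 product families after seeing the values. Genes were named by rule: the H3.3 genes, the 12 most positive and 12 most negative called interactions with a mean of at least 5 TPM, up to 4 called members per list, 6 genes called in opposite directions and 6 with the largest shared response and an interaction interval within ±0.5. Others, such as LUX and EM6 and the examples of families, were chosen after their values were seen. The values of 1 called endodermis gene are not reported here. Promoters were searched on both strands for the heat shock core GAANNTTC, the G-box CACGTG, the evening element AAAATATCT, the abscisic acid element ACGTGNC and the cold response core CCGAC. Alternatives were a pseudocount of 0.1, no filter, removal of organelle genes, a 5 TPM filter, scaling by median of ratios, library weights, a replicate block, all 18 libraries, a robust prior, a change of at least 1, and leaving out each library. Tables and plots used Python 3.11.15, pandas 2.3.3, numpy 2.4.6 and matplotlib 3.10.9.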

Additional observations from a re-analysis of the deposited data

Results flagged for a closer look

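The warmth response differed between h3.3kd and Col by a test of the difference itself for 1696 genes with a more positive and 1920 with a more negative response in h3.3kd. Of genes called in both genotypes, 320 moved in opposite directions. The 6 of these with the largest differences among those averaging 5 TPM or more were AT5G42530 (interaction 3.62), TGG2 (3.57), SESA5 (3.45), AT1G06080 (-3.71), AT1G47980 (-3.39) and AT3G15280 (-2.86). In data outside the comparison, organelle genes took 3.66% of TPM in h3.3kd at 27 °C replicate 1, above the control level of 0.128% to 0.252% in h3.3kd at 21 °C and Col at both temperatures. The interactions of these 6 genes kept their call without that library.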

How the results depend on the processing

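No direction was reversed among the 101 named genes called for the interaction in any of the 21 alternatives that could be fitted. The near-zero interactions of EXPA8 (-0.09 to 0.10), HOP3 (-0.08 to 0.12), AT1G70250 (-0.23 to 0.05), SAG21 (-0.07 to 0.01) and AT2G20560 (-0.19 to 0.12), not called, changed sign. Of the 101, 77 kept the call in every alternative that could be fitted and 24 lost it in some, up to 15 alternatives for SAUR26. A change of at least 1 on the log2 scale left 207 more positive and 318 more negative genes, 657 higher and 338 lower genes in h3.3kd, and 863 higher and 421 lower genes in Col. Leaving out 1 library gave 1304 to 1649 more positive and 1329 to 1956 more negative genes. Median-of-ratios scaling gave 2011 and 1703, so the share of more positive calls was 54.1% against 46.9%. The fit with the replicate block, although replicate numbers did not pair the libraries, called 1576 and 1691. Counts of 1 or 2 members in a list often moved by over 1.5 times when 1 library was left out. TPM hold no depth, so how far depth limits low genes was not tested; with a pseudocount of 0.1, 11 named genes lost their call (PR1, PR5, MYB29, MIOX4, SESA1, IAA6, IAA19, IAA29, SAUR26, HSFA2 and PRR7).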

Other observations

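On chromosome 2, a block of loci numbered AT2G076xx and AT2G077xx, known to carry a copy of mitochondrial sequence, was picked after its values were seen. Of its 22 tested loci 6 (27.3%) were more positive in h3.3kd and 0 more negative, against 8.68% and 9.83% over all genes. AT2G07722 had means of 16.1 and 0.307 TPM in h3.3kd at 27 and 21 °C, against 3.34 TPM in Col at 27 °C and was listed at 0 in Col at 21 °C. Of the 22 loci tested, 5 passed the filter through 1 group alone, against 96 of 19529 over all genes. Among the 6 called, AT2G07775 did so, through h3.3kd at 27 °C. The count was 2 with a pseudocount of 0.1 and 4 without h3.3kd at 27 °C replicate 1, the library with 3.66% of TPM from organelle genes. Mitochondrial genes took 0.241%, 0.0659% and 0.0804% of TPM in the 3 libraries of h3.3kd at 27 °C and 0.0121% to 0.0145% at 21 °C, against 0.0289% to 0.0357% in Col at 27 °C and 0.00986% to 0.0124% at 21 °C. The part of reads from mitochondria in these loci was not tested.

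Lipid-transfer products had 12 of 43 tested (27.9%) more negative and 7 (16.3%) more positive, against 9.83% and 8.68% over all genes. The 7 were 3 or 4 without any 1 of 8 libraries. AT5G46900 fell by 1.12 in h3.3kd and rose by 0.54 in Col, with means of 22.6 and 50 TPM in h3.3kd at 27 and 21 °C, against 83.4 and 56.9 TPM in Col. AT5G01870 went the other way, falling by 0.85 in h3.3kd and 2.21 in Col.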
